A study of Mus musculus with 12 samples.

Results

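The cytosolic ribosomal protein genes of the mouse were followed in hepatocytes sorted from the liver, of which they are the parenchymal cells. Members were the protein-coding genes whose symbol is Rpl or Rps with a number and at most 1 of the letters a, x or l, together with Rplp0, Rplp1, Rplp2 and Rpsa. The rule found 80 genes among 49315, of which 49 encode proteins of the large subunit and 31 proteins of the small subunit. Another 3 symbols fitted the rule but are annotated as pseudogenes (Rps4l, Rpl32l and Rpl6l) and were left out. Of the 80 members, 77 passed the filter on low counts and were tested. The untested ones, Rpl3l, Rpl10l and Rpl39l, are given below by their counts.

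The 12 RNA sequencing libraries came from C57BL/6 mice and fall into 4 groups of 3. The groups are diploid and polyploid hepatocytes of young mice, aged 3 months, and diploid and polyploid hepatocytes of aged mice, aged 27 months. Cells were freed by collagenase perfusion, then sorted by reporter expression and by DNA content from Hoechst staining, and libraries were made with a SMART-Seq v4 Ultra Low Input kit. Per the series text the cells of each ploidy came from 3 young and 3 aged mice, and a replicate number within an age was taken to mark a mouse. The sources used here do not give the reporter or the limits of the DNA content gates.

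A cytosolic ribosome joins a large and a small subunit, each built of ribosomal RNA and many ribosomal proteins, most of which are needed in equal numbers. The messages of these proteins are abundant and short, and most begin with a terminal oligopyrimidine tract, a run of C and T bases that starts with C and through which mTORC1 signalling controls their translation. In the liver, ribosomes serve the heavy output of secreted plasma proteins. Some ribosomal proteins have further roles: Rpl5 and Rpl11 bind Mdm2 and so tie ribosome assembly to p53, and Rps6 is phosphorylated downstream of mTORC1.

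Total gene counts ranged from 17413153 to 26760570 per library, and tests covered 14061 genes. Levels are in CPM, gene counts relative to a library's total, scaled by TMM factors, which align the bulk of genes between libraries. CPM are shares of a library and do not show how much RNA a cell held. In bulk samples, fewer cells of a type and less RNA per cell cannot be told apart. The summed level of 30 hepatocyte identity genes was 31386 CPM in aged diploid replicate 2 and between 156816 and 233856 CPM in the other 11 libraries. Markers of macrophages and Kupffer cells, 16 genes, summed to 663 to 830 CPM in young diploid, 62.1 to 242 CPM in young polyploid, 1185 to 22590 CPM in aged diploid and 37.5 to 181 CPM in aged polyploid libraries. No more than 2 of the 16 were at 0 in any library. Aged diploid replicate 2 held the highest of these values and also the largest TMM factor, 1.69.

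Ribosomal protein messages were among the more abundant of their length. Per kilobase of exon, the 77 tested members had a median of 52.4 CPM over all libraries, against 7.17 CPM per kilobase for 4714 other tested protein-coding genes of like exon length (767.4 to 3450 bases, the 10th to the 90th percentile of the members). Of those genes, 15.6% lay above the members' median. The highest level per kilobase belonged to Rps27l, a close paralog of Rps27 and a known p53 target, with 376 CPM per kilobase. It was followed by Rpl36, a large subunit protein, with 289, by Rplp1, an acidic protein of the stalk that binds elongation factors, with 218, and by Rpl41, a very short protein of the large subunit, with 171 CPM per kilobase. The lowest tested members were Rps15a at 5.51, Rpl22 at 7.54 and Rpl12 at 11.2 CPM per kilobase. Rps15a also had the longest exon length of the tested members, 6270 bases, and Rpl36 the shortest, 404 bases. The longest coding sequence of Rps15a has 390 bases. The order per kilobase thus depends on the annotated exons as well as on the level.

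The members are spread over 19 chromosomes, with 14 of them on chromosome 7. Genes for small nucleolar RNAs, 56 in all, lie within 29 of the members, and 20 members overlap a gene on the other strand. The sources used here do not give the strand setting, and without strand reads of such pairs cannot be told apart. Pseudogenes named after a member exist for 58 of the 80, 273 pseudogenes in all. Their summed level was 79.2 to 309 CPM per library, against 4631 to 14886 CPM for the members. These sums do not show reads left uncounted because they match several places. The part of such reads in the order of members by level was not tested.

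Paralogs known mainly from other tissues were near absent. Rpl10l, the testis paralog of Rpl10, had 0 counts in all libraries, which allows up to 3 counts in each, or 0.112 to 0.172 CPM. Rpl39l, the paralog of Rpl39, had 30 counts in all, of which 11 lay in young polyploid replicate 2, 16 in aged diploid replicate 2 and 3 in aged polyploid replicate 2. Rpl3l, the striated muscle paralog of Rpl3, had 33 counts, of which 4 lay in aged diploid replicate 1, 28 in aged diploid replicate 2 and 1 in aged polyploid replicate 3. Their partners were well expressed, with means over all libraries of 223 CPM for Rpl10, 50.5 CPM for Rpl39 and 138 CPM for Rpl3. Rps4x, an X-linked small subunit gene, had a mean of 82.1 CPM, while its autosomal copy Rps4l, annotated as a pseudogene, had 3790 counts over all libraries.

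In each young mouse the members together stood higher in polyploid than in diploid cells, by 1.76 to 2.14 times, and a gap of that size was seen in 1 of 3 aged mice. The summed CPM of the 80 members was 6249, 4631 and 6182 in young diploid replicates 1 to 3, with a mean of 5688 ± 915 (SD, n = 3). In the young polyploid libraries it was 13384, 8139 and 11674, with a mean of 11066 ± 2675 (SD, n = 3). All 3 young polyploid libraries lay above all 3 young diploid ones.

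The aged diploid libraries held 5237, 5685 and 6488 CPM, with a mean of 5803 ± 634 (SD, n = 3). The aged polyploid libraries held 5817, 5297 and 14886 CPM, with a mean of 8667 ± 5393 (SD, n = 3). Replicate 3 of the aged polyploid group was the highest of all 12 libraries, while its replicates 1 and 2 lay within the range of the diploid libraries. Without replicate 3 the aged polyploid mean was 5557 CPM.

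**Figure D1:**
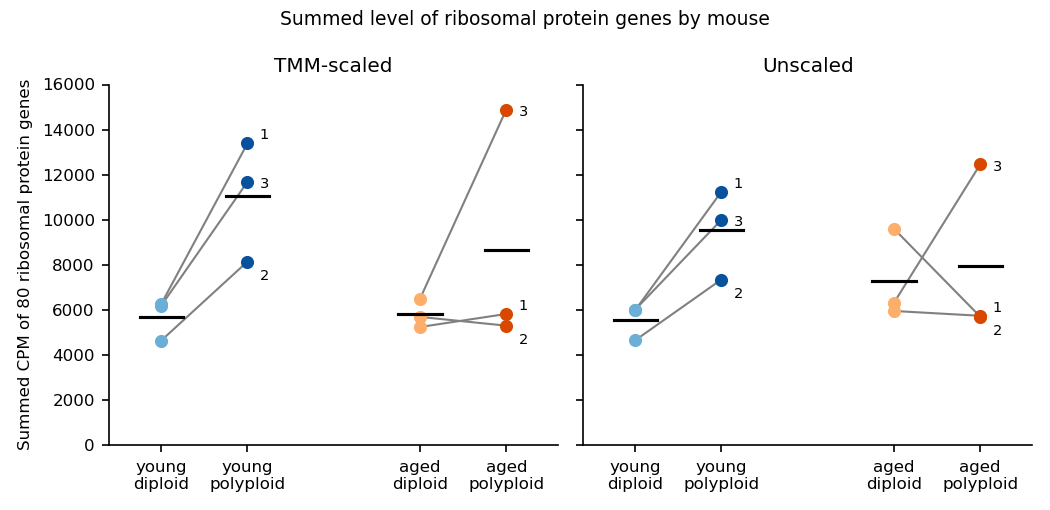
Summed CPM of the 80 members in each library, with TMM scaling (left) and without (right); each point is a library, numbers and grey lines mark the mouse, and black bars are group means. With TMM scaling, the sum lay higher in the polyploid fraction of all 3 young mice, while 1 of the 3 aged mice, mouse 3, showed a gap of that size.

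Within a mouse, the polyploid sum was 2.14, 1.76 and 1.89 times the diploid sum in young mice 1 to 3. In aged mice 1 to 3 it was 1.11, 0.932 and 2.29 times the diploid sum. Each of the 77 tested members was higher in the polyploid library in every young mouse and in aged mouse 3. In aged mouse 1, 63 of the 77 were higher, and in aged mouse 2, 23 were.

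The within-mouse medians over the 77 members were 1.12, 0.82 and 0.90 in log2 units in the young mice and 0.13, -0.11 and 1.21 in the aged mice. Genes of like exon length had within-mouse medians of 0.12, 0.19 and 0.15 in the young mice and 0.09, 0.12 and 0.18 in the aged mice. In the young mice and aged mouse 3 the members' gap was several times that of genes of like length, in aged mouse 1 it was close to theirs, and in aged mouse 2 it had the other sign.

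Scaling bore on the sums of both ages. Without TMM factors the polyploid sum was 1.88, 1.58 and 1.66 times the diploid one in young mice 1 to 3. With them it was 2.14, 1.76 and 1.89 times. In aged mouse 1 the polyploid sum was 1.11 times the diploid one with TMM factors and 0.964 times without. Unscaled, the sum in aged diploid replicate 2 was 9598 CPM in place of 5685 CPM, and the polyploid sum of that mouse was 0.593 times the diploid one. As a share of all counts, the members took 0.464% to 0.6% in young diploid, 0.735% to 1.12% in young polyploid, 0.595% to 0.96% in aged diploid and 0.569% to 1.25% in aged polyploid libraries.

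The members were high in the same libraries. Set against each member's own mean log2 CPM over the 12 libraries, 77, 74 and 77 of 77 members were above it in young polyploid replicates 1 to 3, and 77 were in aged polyploid replicate 3. In the other 8 libraries between 0 and 8 members were above their mean, and the 8 belonged to aged diploid replicate 2. The 4 libraries highest in members were also the 4 with the fewest genes counted, 16749 to 17231 against 17410 to 23354 in the other 8, and the 4 with the lowest TMM factors, 0.837 to 0.902 against 0.957 to 1.69. The part of these library properties in the result was not tested.

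**Figure D2:**
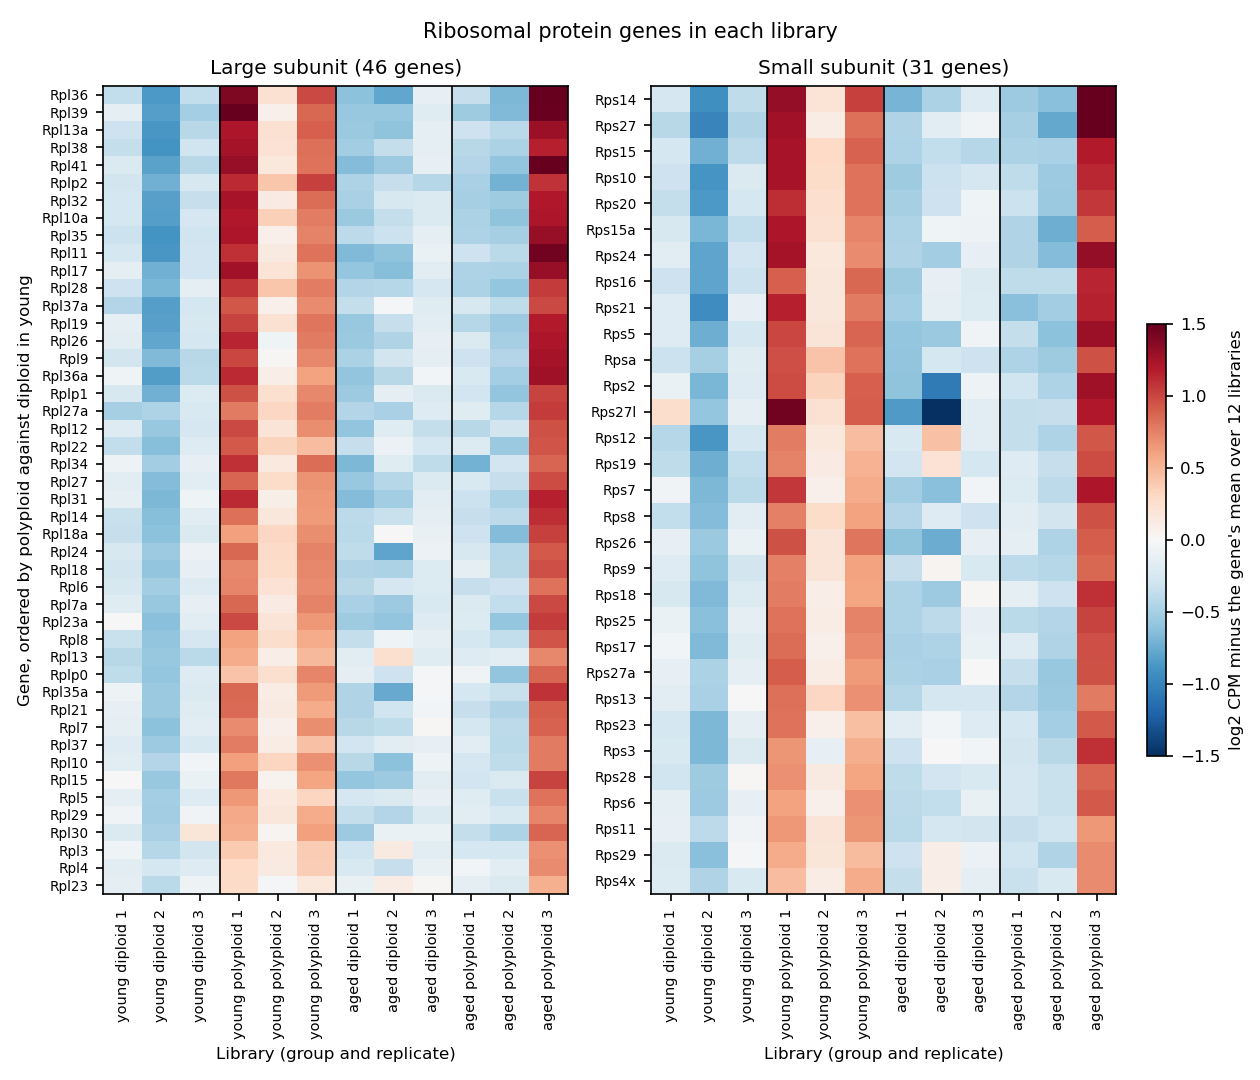
Log2 CPM of each tested member minus its own mean over the 12 libraries (colour), for the large subunit (left, 46 genes) and the small subunit (right, 31 genes); columns are libraries and black lines part the groups. The 3 young polyploid libraries and aged polyploid replicate 3 stand above the other 8 for nearly all genes, and Rps27l falls furthest below its mean in aged diploid replicate 2.

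The size of the shift differed among members. The SD of log2 CPM over the 12 libraries ran from 0.247 for Rpl23 to 0.873 for Rps27l, with a median of 0.572. Rpl23, Rpl4 and Rpl3, all of the large subunit, varied least, and Rps27l, Rpl36 and Rpl39 varied most. In young mice Rpl23 held 59.4, 49.2 and 61.7 CPM in the diploid and 79.3, 64.3 and 72.7 CPM in the polyploid libraries, and in aged mice it held 60.3, 70.7 and 66.1 CPM in the diploid and 59.2, 56.2 and 94.3 CPM in the polyploid libraries. Its polyploid libraries of young mice were above the diploid ones, with a narrow gap, and it had the smallest shift of the 77 members in all 3 young mice.

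In young mice Rpl36 held 75.7, 53.5 and 75.5 CPM in the diploid and 257, 114 and 193 CPM in the polyploid libraries, and in aged mice it held 63.9, 56.6 and 89.5 CPM in the diploid and 76.9, 60.9 and 282 CPM in the polyploid libraries. The groups of young mice did not overlap, and aged polyploid replicate 3 was the highest of all. Rpl4, the next least variable after Rpl23, had a log2 fold change of 0.48 (SE 0.266) for polyploid against diploid cells of young mice. The members' fold change in young mice was 0.34 (SE 0.235) for Rpl23 and 1.47 (SE 0.524) for Rpl36 on the log2 scale, the lowest and the highest of the 77.

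The starts of some of these genes are shown because the members were high in the same libraries and because most of their messages are thought to begin with a pyrimidine tract. Each line gives 30 bases before and 30 bases from the RefSeq start on GRCm38.p6, 5′ to 3′ on the gene's strand. Capitals mark a run of at least 5 pyrimidines that begins with C within 5 bases of the start. Rpl27a and Rpl13a are the members that passed the test over both ages, Rps6 is the mTORC1 target, Rps27 and Rps27l are paralogs, Rpl41 is among the highest per kilobase, and Rpl23 is the least variable.
Rpl27a (chr7:109519165-109519224, plus strand): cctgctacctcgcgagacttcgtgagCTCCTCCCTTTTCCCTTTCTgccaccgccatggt
Rpl13a (chr7:45128716-45128775, minus strand): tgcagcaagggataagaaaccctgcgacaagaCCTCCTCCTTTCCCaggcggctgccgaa
Rps6 (chr4:86857338-86857397, minus strand): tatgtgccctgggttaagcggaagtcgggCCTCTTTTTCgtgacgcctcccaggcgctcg
Rps27 (chr3:90213619-90213678, minus strand): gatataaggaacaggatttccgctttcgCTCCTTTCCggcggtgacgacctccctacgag
Rps27l (chr9:66946056-66946115, plus strand): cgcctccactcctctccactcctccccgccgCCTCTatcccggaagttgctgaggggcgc
Rpl41 (chr10:128549139-128549198, minus strand): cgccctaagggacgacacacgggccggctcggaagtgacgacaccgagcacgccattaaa
Rpl23 (chr11:97782410-97782469, minus strand): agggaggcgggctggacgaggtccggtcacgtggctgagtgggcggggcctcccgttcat

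The run is 20 bases long in Rpl27a, 14 in Rpl13a, 10 in Rps6 and 9 in Rps27, but 5 in Rps27l at this start, and none was found at the starts listed for Rpl41 and Rpl23. Of the 60 members with a promoter in the RefSeq table, 46.7% had such a run, against 21.2% of all 27025 genes in it. In the 250 bases before to 50 bases after the start, on either strand, CCGGAAG, the core of ETS family sites, was found in 41.7% of the members against 9.93% of all genes. CCATNTT, the YY1 motif, was found in 31.7% against 18.2%, and TATAAA, the TATA box, in 10% against 15.7%. The letters CTTCC at one end of the ETS motif, read on the other strand, are pyrimidines, so that motif and the run can overlap.

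In young mice the 28 tested members with a pyrimidine run had a median polyploid against diploid log2 fold change of 1.04, and the 29 without one had 0.94. The 24 with CCGGAAG had a median of 1.06 and the 33 without had 0.93. For CCATNTT the medians were 0.97 in 18 with and 0.99 in 39 without it, and for TATAAA 1.02 in 6 with and 0.97 in 51 without it. These gaps between sequence classes are small beside the range of single members, 0.34 to 1.47, and are given as a description.

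Polyploid against diploid cells of young mice showed the largest median shift of the comparisons within an age or a fraction. The members' median log2 fold change was 0.95, and the median over all genes tested was -0.06. With no scaling factors these medians were 0.77 and -0.23, and with libraries scaled to the hepatocyte identity genes 0.73 and -0.28. All 77 members were positive with TMM scaling, against 46.4% of all genes. The share was 60.2% of genes of like exon length and 69% of the 954 of these that were also of like level. No gene passed in edgeR's quasi-likelihood test, with p adjusted over all genes by Benjamini and Hochberg's method: no member had an adjusted p under 0.05, and 0% of all genes were called. At an unadjusted p under 0.05, 67 of the 77 members were higher, against 5.22% of all genes. For 75 of the 77 the 3 polyploid libraries lay above the 3 diploid ones. This held for 16.8% of all genes, 26.1% of genes of like length and 40.9% of genes of like length and level. The exceptions among the members were Rps27l and Rpl30. In the same libraries macrophage markers summed to 62.1 to 242 CPM (polyploid) and 663 to 830 CPM (diploid), and their part in the members' gap was not tested. The count of calls depended on the samples in the fit: with the 2 young groups alone, 67 members passed as higher, against 4.73% of all genes.

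The members with the smallest p in young mice were Rpl13a, Rps15 and Rps20. Rps15, a small subunit protein near the decoding centre, held 54.5, 39.8 and 49.8 CPM in the diploid and 154, 80.5 and 121 CPM in the polyploid libraries of young mice. Rps20, a protein of the small subunit head, held 33.9, 23.9 and 36.1 CPM in the diploid and 93.3, 51.8 and 76.1 CPM in the polyploid libraries of young mice. Neither gene's groups overlapped. Their log2 fold changes were 1.30 (SE 0.42) for Rps15 and 1.24 (SE 0.399) for Rps20, both with an adjusted p of 0.393, the smallest of any member in this comparison.

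The stalk proteins recruit elongation factors to the large subunit. Rplp0, their anchor, held 188, 163 and 214 CPM in the diploid and 327, 289 and 405 CPM in the polyploid libraries of young mice. Rplp2, one of its acidic partners, held 60.8, 44.6 and 62.3 CPM in the diploid and 159, 98.1 and 150 CPM in the polyploid libraries of young mice. Neither overlapped between the fractions, and the fitted log2 fold changes were 0.85 (SE 0.348) for Rplp0, 1.04 (SE 0.389) for Rplp1 and 1.28 (SE 0.418) for Rplp2.

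Rpl5 and Rpl11, which form a particle with 5S RNA, were both higher in the polyploid libraries of young mice. Rpl5 held 82.2, 63.2 and 78.5 CPM in the diploid and 142, 100 and 113 CPM in the polyploid libraries of young mice. Rpl11 held 65.6, 43.2 and 64.4 CPM in the diploid and 169, 86.7 and 139 CPM in the polyploid libraries of young mice. The fractions of young mice did not overlap for either gene. The log2 fold change was 0.67 (SE 0.301) for Rpl5 and 1.19 (SE 0.466) for Rpl11. Both genes were measured in the same libraries, and the difference between their fold changes was not tested.

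Rpl41 and Rpl22, of the large subunit, had log2 fold changes of 1.29 (SE 0.516) and 0.98 (SE 0.346). Small subunit members gave like values. Rps6 held 117, 88.6 and 118 CPM in the diploid and 196, 136 and 207 CPM in the polyploid libraries of young mice, with a log2 fold change of 0.73 (SE 0.339). Rpsa, also known as the laminin receptor, had a log2 fold change of 1.09 (SE 0.374), and Rps19, the gene most often mutated in Diamond-Blackfan anaemia, 0.97 (SE 0.349). Rps27a, which is made as a fusion with ubiquitin, had 0.83 (SE 0.381). The medians of the subunits were 0.94 over 46 large subunit members and 0.97 over 31 small subunit members.

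**Figure D3:**
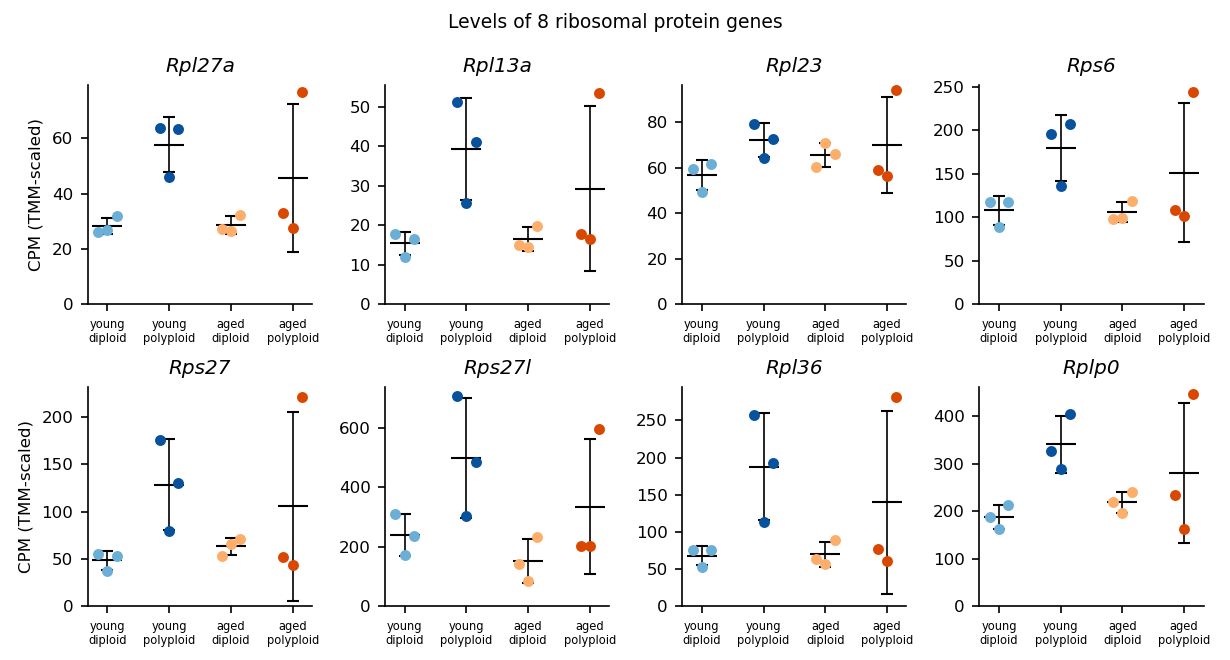
TMM-scaled CPM of 8 members in the 12 libraries; points are libraries (replicates 1 to 3 from left to right), horizontal bars are group means and whiskers are 1 SD (n = 3). In each panel aged polyploid replicate 3 lies far above replicates 1 and 2, and for all genes shown but Rps27l the young polyploid libraries lie above the young diploid ones.

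Fold changes toward polyploid cells were higher for genes of shorter exon length, and most members lay above other genes of their exon length. When other protein-coding genes were split by exon length into 10 classes of like size, the median polyploid against diploid log2 fold change in young mice ran from 0.45 in the shortest class (204 to 1611 bases) to -0.44 in the longest. The shortest class spans 33 members and the next, with a median of 0.18, spans 18. In young mice 77 of 77 members lay above the median of their length class, and in aged mice 70 did. Over all genes of like exon length the median was 0.15, and over the 954 of them that were also of like level it was 0.26. Among the members, the 25 shortest had a median of 1.05, the 27 of middle length 0.94 and the 25 longest 0.89. With exon length corrected in each library, the members' median was 0.75 in young and 0.24 in aged mice. Exon length covers all annotated exons of a gene and can exceed the length of its message. The tested members had a median exon length of 1726 bases but a median coding length of 456 bases. Genes of like exon length were not matched on message length, and the part of message length in the members' shift was not tested.

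**Figure D4:**
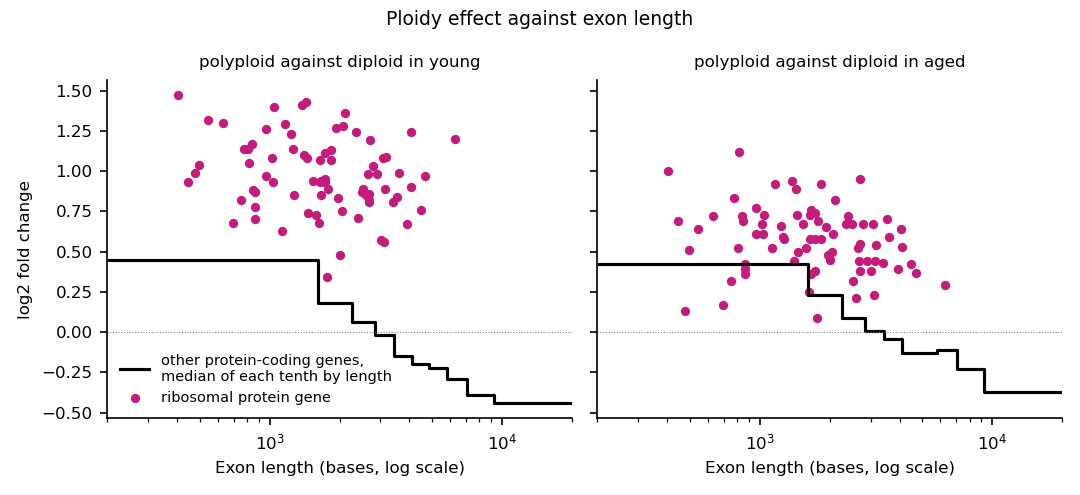
Log2 fold change of polyploid against diploid cells against exon length (log axis) in young (left) and aged (right) mice; points are the 77 tested members and the stepped line is the median of other protein-coding genes in each of 10 classes of exon length. All 77 members lie above the line in young mice, and 70 do in aged mice.

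In aged mice, the polyploid against diploid comparison gave a members' median of 0.58, against 0.02 for all genes, 0.17 for genes of like length and 0.42 for genes of like length and level. With exon length corrected, the members' median was 0.24. All 77 members were positive, against 51% of all genes, 59% of genes of like length and 77.8% of genes of like length and level. No member passed in edgeR's test, while 9.69% of all genes passed in either direction. At an unadjusted p under 0.05 the count was 0 members against 4.17% of all genes for higher values. This direction rested on aged polyploid replicate 3: without that library the median was -0.10, and 24 of the 77 were positive. The sign of the members' median also depended on the scaling. With libraries scaled to the hepatocyte identity genes it was -0.97, where the median of all genes was -1.44. Other scalings kept it positive, at 0.59 with RLE, 0.63 with upper quartile scaling and 0.12 with no scaling factors.

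The members of smallest p in aged mice were Rps27l, Rpl11 and Rpl15. Rps27l held 144, 85.4 and 232 CPM in aged diploid and 203, 204 and 596 CPM in aged polyploid libraries. The groups overlapped, although the polyploid value was the higher one in each mouse. The log2 fold change was 1.12 (SE 0.516, adjusted p = 0.246), and with the mouse as a replicate block it was 1.04 with an adjusted p of 0.0347. Rps27l was the one member that passed with the block, where 3.51% of all genes passed as higher. Rpl11 had a log2 fold change of 0.95 (SE 0.464) and Rpl15 of 0.72 (SE 0.357) without the block.

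Over both ages, polyploid cells had a members' median of 0.77, against -0.06 for all genes, 0.13 for genes of like exon length and 0.31 for genes of like length and level. With exon length corrected it was 0.48. In edgeR's test 2 members rose, Rpl27a and Rpl13a, which is 2 of 77 against 0.882% of all genes called as higher. At an unadjusted p under 0.05, 71 of the 77 were higher, against 11.1% of all genes.

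Rpl27a, a large subunit protein encoded at chr7:109519147-109522367 on GRCm38, held 26.2, 26.8 and 31.7 CPM in the diploid and 63.8, 46.1 and 63.2 CPM in the polyploid libraries of young mice. In the aged groups it held 27.3, 26.4 and 32.4 CPM in diploid and 32.8, 27.6 and 76.5 CPM in polyploid libraries. The fractions did not overlap in young mice and did in aged mice. Its log2 fold change over both ages was 0.85 (SE 0.239, adjusted p = 0.0471), and the adjusted p over the alternatives ran from 0.0111 to 0.999.

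Rpl13a, a large subunit protein that also takes part in translational silencing of inflammatory messages, is encoded at chr7:45125558-45128761 and hosts 4 small nucleolar RNA genes. It held 17.7, 12 and 16.5 CPM in the diploid and 51.2, 25.7 and 41.1 CPM in the polyploid libraries of young mice. In the aged groups it held 15, 14.5 and 19.9 CPM in diploid and 17.7, 16.6 and 53.4 CPM in polyploid libraries. As for Rpl27a, the fractions overlapped in aged mice and not in young ones. Its log2 fold change was 1.09 (SE 0.302, adjusted p = 0.045), with a range of adjusted p over the alternatives from 0.0024 to 0.702.

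How many members passed over both ages depended strongly on the model. With the mouse as a replicate block 49 members were higher, against 8.9% of all genes. DESeq2 called 48 (5.26% of all genes), voom of limma, which took the mouse as a random effect, 28 (5.18%), and edgeR with no filter on low counts 46 (1.84% of 27518 genes). The block and DESeq2 shared 45 members, 91.8% of the first and 93.8% of the second list. By contrast, none passed with exon length corrected, without scaling factors, with scaling to the hepatocyte identity genes or at a mean CPM of at least 5. The share of all genes called as higher under these settings is not given here. These counts therefore do not show whether the members differed from other genes there. With the block and the length correction together, 13 passed (6.63% of all genes).

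The replicate block, DESeq2, voom of limma and the fit with no filter all called 24 members. Of these, 15 were of the large and 9 of the small subunit, and another 21 members were called by none of the 4 fits. The share of all genes called by all 4 fits or by none is not given here, so these counts describe the members alone. The 24 included Rplp2, Rpl11, Rpl12, Rpl36, Rps15, Rps20, Rps26 and Rps27l, and the 21 included Rpl3, Rpl5, Rpl13, Rpl23, Rplp0, Rps6, Rps12, Rps13, Rps19 and Rps4x.

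Single libraries also decided the count. It was 22 without aged diploid replicate 3 (6.58% of all genes) and 31 without aged polyploid replicate 2 (2% of all genes). It was 3 without aged polyploid replicate 1 (0.605% of all genes), 1 without young polyploid replicate 2 (0.341%) and 1 without aged polyploid replicate 3 (0.242%). Without any one of the remaining 7 libraries (young diploid replicates 1, 2 and 3, young polyploid replicates 1 and 3, and aged diploid replicates 1 and 2) it was 0. The share of all genes called without each of these 7 is not given here. The members' median over both ages lay between 0.50 and 0.92 in these 12 fits, and between 0.44 and 0.81 over the other alternatives except scaling to the hepatocyte identity genes, where it was -0.11 and the median of all genes was -0.86.

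Between aged and young diploid cells the members' fold changes lay close to 0 with TMM scaling. The median was 0.04 on the log2 scale, or -0.04 with upper quartile scaling and 0.17 with exon length corrected. It was 0.09 for all genes, -0.04 for genes of like length and -0.25 for genes of like length and level. Of the 77, 48 (62.3%) were positive, against 55.3% of all genes, 48% of genes of like length and 27.1% of genes of like length and level. No member passed in edgeR's test, where 3.93% of all genes did, and none had an unadjusted p under 0.05, where 19.6% of all genes did. Fold changes ran from -0.64 for Rps27l to 0.55 for Rps12. The quartiles were -0.06 and 0.16 for the members, against -0.31 and 0.68 for all genes. Without scaling factors the medians of members and of all genes were 0.38 and 0.46, a shift of both. With libraries scaled to the hepatocyte identity genes they were 1.45 and 1.53. Without aged diploid replicates 1 and 2, the libraries highest in macrophage markers, they were 0.18 and -0.02.

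The members of smallest p above 0 in this comparison were Rpl13, Rps12 and Rps19. Rpl13 held 111, 100 and 112 CPM in young and 131, 175 and 130 CPM in aged diploid libraries, a log2 fold change of 0.43 (SE 0.288, adjusted p = 0.449). Rps12 held 15.1, 11.1 and 16.9 CPM in young and 17.4, 27.6 and 18.1 CPM in aged diploid libraries. Rps19 had a log2 fold change of 0.39 (SE 0.346). These 3 were the members whose aged libraries all lay above the young ones, 3 of 77 or 3.9%, against 13.3% of all genes. Among the diploid libraries the highest value of each of these 3 lay in aged diploid replicate 2, the library richest in macrophage markers. For Rps19 this value was 125 CPM, against 88.1 and 90.2 CPM in aged diploid replicates 1 and 3. The part of that library's other cells in these values was not tested.

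Below 0 the smallest p belonged to Rps27l, Rpl15 and Rps26. Rps27l held 311, 173 and 236 CPM in young and 144, 85.4 and 232 CPM in aged diploid libraries, and the ages overlapped. Rpl15, a core protein of the large subunit, had a log2 fold change of -0.22 (SE 0.355) and Rps26, which sits at the messenger RNA exit channel, -0.22 (SE 0.353).

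For aged against young polyploid cells the members' fold changes were below 0, but no member's libraries separated the ages. Over all genes, 6.82% had every aged library below the young ones, and 9.83% had every aged library above them. The members' median log2 fold change was -0.36, and all 77 were negative. By comparison, 53.2% of all genes, 41% of genes of like length and 33.9% of genes of like length and level were positive. The median was 0.05 for all genes, -0.11 for genes of like length and -0.18 for genes of like length and level. No member passed in edgeR's test, where 0.0356% of all genes did, and none had an unadjusted p under 0.05, where 2.29% of all genes were lower. The size of the gap depended on aged polyploid replicate 3. Without it the median was -1.03, and 75 of the 77 members had an unadjusted p under 0.05, against 10.8% of all genes that were lower, although still 0 passed after adjustment.

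The members of smallest p here were Rps15a, Rplp2 and Rps13. Rplp2 held 159, 98.1 and 150 CPM in young and 52.2, 45 and 156 CPM in aged polyploid libraries, a log2 fold change of -0.69 (SE 0.413, adjusted p = 0.627). Rps13, a small subunit protein, had -0.55 (SE 0.333, adjusted p = 0.628). Rps15a held 72.6, 36.6 and 52 CPM in young and 22.9, 18.8 and 58.9 CPM in aged polyploid libraries, a log2 fold change of -0.68 (SE 0.396, adjusted p = 0.622). For Rplp2 and Rps15a, aged replicates 1 and 2 lay below all young libraries and aged replicate 3 within or above their range.

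**Figure D5:**
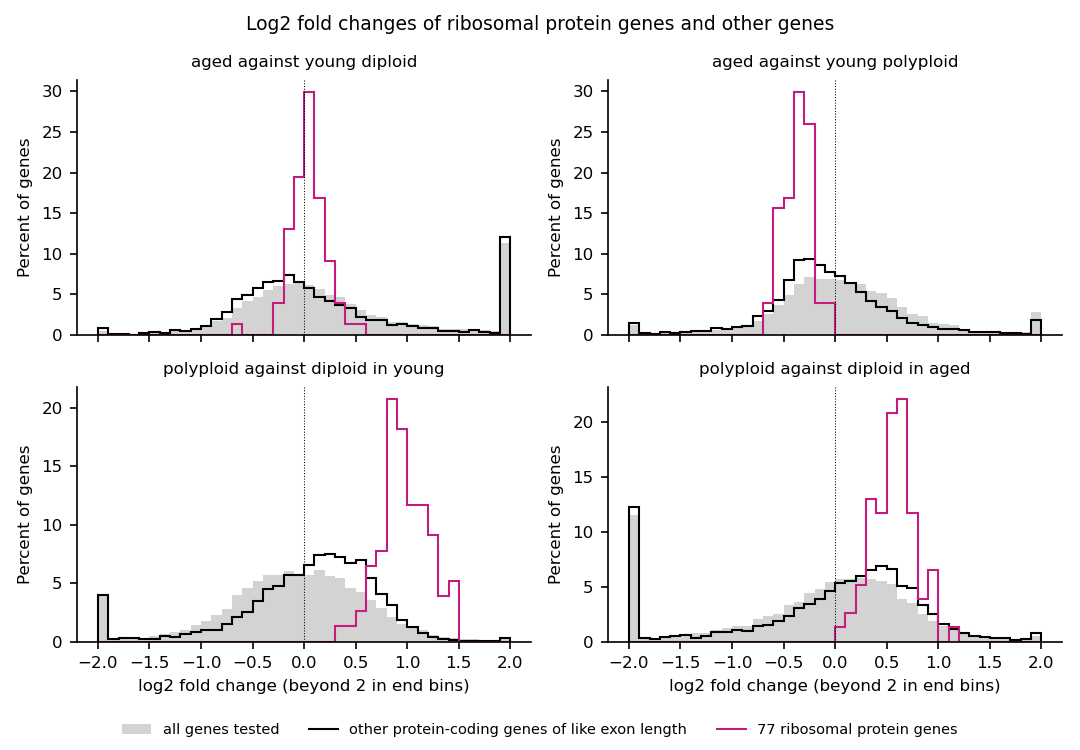
Distribution of log2 fold changes in 4 comparisons for the 77 tested members, 4714 other protein-coding genes of like exon length and all 14061 genes tested; bars give the percent of each gene set per 0.1 of log2 fold change, and values beyond 2 are placed in the end bins. The members form a narrow peak near 0 for age in diploid cells, with medians of -0.36 for age in polyploid cells, 0.95 for ploidy in young and 0.58 for ploidy in aged mice.

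The difference between the ploidy effects of the 2 ages was tested as an interaction. No member and no other gene passed (0% called), and 0 members had an unadjusted p under 0.05, against 11% of all genes. The members' median interaction was -0.40 and 75 of the 77 were negative. By comparison, 49.8% of all genes, 48.1% of genes of like length and 59% of genes of like length and level were positive. Among the members the lowest values were -0.91 (SE 0.559, adjusted p = 0.609) for Rps15a, -0.85 (SE 0.522) for Rps12 and -0.64 (SE 0.407) for Rpl13. The positive members were Rps27l, at 0.07, and Rpl15. Without aged polyploid replicate 3 the median was -1.05 and 69 members had an unadjusted p under 0.05, against 11.5% of all genes that were lower, with none past the adjusted threshold. The ploidy effect on the members is therefore not shown to differ between ages.

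Rps27 and Rps27l, whose proteins are close in sequence, did not keep a fixed ratio. In young mice Rps27 held 54.9, 37.1 and 53.6 CPM in the diploid and 176, 79.5 and 130 CPM in the polyploid libraries, and in aged mice it held 53.7, 65.8 and 70.7 CPM in the diploid and 52.1, 43.3 and 221 CPM in the polyploid libraries. Rps27l took 3.73% to 4.98% of the members' summed CPM in young diploid libraries and 1.5% to 3.58% in aged diploid libraries, so these groups did not overlap. Rps27 took 0.801% to 0.879% and 1.02% to 1.16% in the same groups, which did not overlap either and went the other way. In polyploid libraries the shares of Rps27l were 3.73% to 5.28% in young and 3.49% to 4% in aged mice, and those of Rps27 0.977% to 1.32% and 0.817% to 1.48%, both with overlap.

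The log2 fold change of aged against young diploid cells was -0.64 (SE 0.512, adjusted p = 0.525) for Rps27l and 0.39 (SE 0.531, adjusted p = 0.72) for Rps27. The lowest share of Rps27l, 1.5%, lay in aged diploid replicate 2. Its fold change was -0.07 without aged diploid replicates 1 and 2, the libraries highest in macrophage markers. With scaling to the hepatocyte identity genes it was 0.32, where the median was 1.45 for the members and 1.53 for all genes.

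Ribosomal protein genes whose symbols the rule leaves out had like values in young mice. Of the 7 on this list, Fau and Rack1 among them, all were positive for polyploid against diploid cells, with a median of 0.83. None passed, and 3 had an unadjusted p under 0.05, against 12.4% of all genes in either direction. Rack1, a scaffold on the small subunit, had a log2 fold change of 0.83 (SE 0.342).

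The other lists of the translation machinery had smaller medians in the same comparison. Over 23 genes of terminal oligopyrimidine messages and elongation factors the median was 0.40, with 0 passing and 7 at an unadjusted p under 0.05, again against 12.4% of all genes. Eef1g, a subunit of the factor that reloads eEF1A, had 0.89 (SE 0.304). Over 24 translation initiation factors the median was 0.13, with 0 passing. Eif6, which keeps free large subunits from joining, had 0.91 (SE 0.269) in young mice and 0.66 (SE 0.189, adjusted p = 0.0504) over both ages. Over both ages 10 of the 23 had an unadjusted p under 0.05, against 28.8% of all genes, and 1 gene, Vim, fell, by 3.55 on the log2 scale, where 7.79% of all genes were called lower. Vim encodes vimentin, an intermediate filament of mesenchymal and immune cells, and its log2 fold change was -5.85 (adjusted p = 0.00702) in aged polyploid against aged diploid cells, where the macrophage marker sum also differed most.

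Genes that make ribosomes or set their number had medians near 0. The 43 genes of ribosome biogenesis and RNA polymerase I had a median of -0.07 in young mice and -0.06 over both ages, with 0 passing in either. Nhp2, a core protein of box H/ACA particles, had the smallest p over both ages, at 0.76 (SE 0.226, adjusted p = 0.0598). The 17 genes of the mTORC1 pathway and Myc had medians of -0.11 and -0.02, with 0 passing. Myc, an activator of ribosome genes, was at -1.22 (SE 0.716) in aged polyploid against aged diploid cells, and its adjusted p was 0.345 without and 0.0249 with the mouse as a block. The share of all genes called lower with the block is not given here. Between aged and young diploid cells Myc was at 1.25. Macrophage markers were highest in aged diploid cells, and their part in these Myc values was not tested.

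The list of ribosome stress and p53 held 10 genes, of which 1, Trp53, fell in aged polyploid against aged diploid cells, with a log2 fold change of -1.07 (SE 0.27) and an adjusted p of 0.0251. In this comparison 9.33% of all genes were called lower, so 1 of 10 is near the share over all genes. Its mean CPM was 16.4 in diploid and 20.5 in polyploid cells of young mice, and 27.6 and 13.2 in those of aged mice. In aged diploid cells macrophage markers were also at their highest, and their part in this value was not tested. In young mice the list had a median of -0.02 for polyploid against diploid cells, with 0 passing.

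The 30 hepatocyte identity genes, among which are Alb and Apoa1, had a median of 0.31 in young and 0.56 in aged mice for polyploid against diploid cells, with 0 passing in either. The members' median, 0.95, was above that of this list in young mice, and in aged mice the values were 0.58 and 0.56. For aged against young diploid cells the identity list had a median of -0.56 with all 30 genes negative, where the members were at 0.04. Of the 30, 6 had every aged library below the young ones (20%, against 7.57% of all genes). The list summed to 156816, 31386 and 213836 CPM in aged diploid replicates 1 to 3, against 186047 to 195225 CPM in young diploid libraries. Replicate 3 thus lay above all young diploid libraries. Replicate 2, also the richest in macrophage markers, enters the 0.56 for ploidy in aged mice as well.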

How the data were processed

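RNA of sorted hepatocytes was measured in 12 libraries. The deposited values are whole-number read counts per gene, with 1 file per library whose columns, per the file headers, are those featureCounts writes. Per the submitters' processing notes, Trimmomatic 0.36, STAR 2.5.2b and featureCounts of Subread 1.5.2 were used, with the build GRCm38 (mm10). Whether reads or fragments were counted and with which strand setting, the sources used here do not say.

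Gene IDs were named through GENCODE release M21: 49056 of 49315 matched, and the 259 others held 0.00803% of counts. The main test was edgeR's quasi-likelihood F test (edgeR 4.0.16, R 4.3.3), run on the counts as deposited after filterByExpr (14061 of 27518 genes with a count) and TMM scaling, with 1 mean per group over all 12 libraries and Benjamini-Hochberg adjustment over all genes, at 0.05. There were 6 comparisons. Lists were described by counts and medians, with no test of their own. Counting intervals and floors (3 counts) cover counting error only.

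The members and gene lists were chosen with earlier results of these data known. Members were named by a rule: those that passed, up to 10 in each direction by p, or else the 3 of smallest p, a fixed set of stalk, 5S particle and paralog genes, the 3 highest and lowest per kilobase, and the 3 most and least variable. Rpl30 and the members listed by how many fits called them were named after their values were seen, and likewise the promoters that were printed. Some genes of the other lists that the rule would name are not reported here.

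Per the series text, cells of each ploidy were from 3 young and 3 aged mice. Over 9076 genes, deviations from the group means of same-numbered libraries correlated with r of 0.348 to 0.559 in young and 0.424 to 0.514 in aged mice, and those of other numbers with r of -0.599 to -0.021. Deviations within a group sum to 0 for each gene. Positive r for the same number thus makes r for other numbers lean negative, and these are not separate evidence. A shared preparation of same-numbered libraries was not tested. From the series text and the same-number values, a number within an age was treated as a mouse. In the aging comparisons a number is shared by different mice and pairs nothing.

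Alternatives were RLE, upper quartile, hepatocyte identity and no scaling, no filter and a mean CPM of at least 5, robust dispersions, DESeq2 1.42.0, voom of limma 3.58.1 with the mouse as a random effect, the compared groups alone, a lowess correction on exon length (span 0.3), the replicate block with and without that correction, and each library left out. Leaving out aged diploid replicates 1 and 2 was added after seeing the data. Promoters are from RefSeq (GRCm38.p6), which held 60 of the 80 members.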

Additional observations from a re-analysis of the deposited data

How the results depend on the processing

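The members' calls depended on the settings in 3 of the 6 comparisons. Over both ages 2 members passed in the reported fit. With the replicate block 49 passed (8.9% of all genes as higher), with DESeq2 48 (5.26%) and with limma voom 28 (5.18%). No filter gave 46 (1.84%), and the replicate block with the exon length correction gave 13 (6.63%). None passed with no scaling factors, hepatocyte identity scaling, a mean CPM of at least 5 or the exon length correction. The share of all genes under those settings is not given here. Leaving out each library in turn gave 0 to 31. In young mice 67 passed with the compared groups alone (4.73% of all genes as higher) and 0 in the reported fit. In aged mice the replicate block gave 1 in place of 0, where 3.51% of all genes passed as higher. The mouse pairing changed no other count of member calls, and in the aging comparisons and the interaction the count was 0 under the alternatives that were run for it. In young mice the count with the replicate block was 0, as without it.

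The members' medians moved by more than the spread between replicates under hepatocyte identity scaling, to 1.45 for age in diploid cells, -0.97 for ploidy in aged mice, -0.11 for ploidy over both ages and -1.76 for the interaction. That scaling divides by genes that were low in aged diploid replicate 2, and with it the median of all genes was 1.53, -1.44, -0.86 and -1.24. Leaving out each library in turn gave medians of -1.03 to -0.09 for age in polyploid cells, -0.10 to 0.85 for ploidy in aged mice and -1.05 to -0.14 for the interaction. In each of these 3 the lowest value came without aged polyploid replicate 3. The summed level in aged diploid cells was 13936 CPM with hepatocyte identity scaling and 7286 CPM with no scaling factors, against 5803 CPM.

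For the members named in the text, 4774 values were recomputed in all: 4274 kept their side of the threshold and stayed within the error of the fit, 367 moved by more, 107 passed only under the alternative, 26 no longer passed, and 0 values that passed changed direction. The tested members had mean levels of 21.8 to 307 CPM, where 1 CPM is 17.4 to 26.8 counts, and each group had 3 libraries.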
